A study of Mus musculus with 6 samples.

Results

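The genes described here encode the proteins that open replication origins and run the replication fork. They are 45 genes fixed by name: the origin recognition and licensing factors, the MCM helicase, its activators, the primase and polymerases, the clamp and its loader, the single-strand binding complex, the Okazaki fragment enzymes and Uhrf1. Each gene was represented by the RefSeq transcript row of highest mean over all 6 arrays, and 44 of the 45 had a row, out of 20259 genes with a row in the series. The expression of the clamp gene Pcna was not analysed here, and the gene enters only the promoter search below. Of the 44 genes, 43 lay above the median level of all rows, and Orc1 lay below it.

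The cells were neural stem cells of CD-1 albino mice, of embryonic stage E14.5, grown under proliferation conditions in suspended clusters known as neurospheres. They were nucleofected, which is an electrical transfection, with a mimic of the microRNA miR-128 (3 arrays, miR-128 replicates 1 to 3) or with miR-Control (3 arrays, miR-Control replicates 1 to 3), and total RNA was taken after 72 h. Per the series design, such cells do not normally express miR-128. The labels name the arrays biological triplicates without saying which cultures they came from, so p-values measure the spread between these 6 RNAs.

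In every dividing cell, origins are marked by the origin recognition complex in G1. Cdc6 and Cdt1 then load MCM helicase rings there, and geminin blocks a further round of loading. At the start of S phase the kinase Cdc7 with its partner Dbf4, together with Cdc45 and the GINS complex, turns the loaded ring into an active helicase. Polymerase alpha with primase starts each strand, the clamp loader places the sliding clamp, and polymerases delta and epsilon extend from it. In embryonic neural progenitors these genes are known as markers of cycling cells, and many are classic targets of E2F transcription factors.

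The effector introduced into the cells, mature miR-128-3p, is shown because it is the only difference between the groups that the labels name. RefSeq (GRCm38.p6) gives the same mature sequence at chr1:128202404-128202424 (plus strand) and at chr9:112118644-112118664 (minus strand), and capitals mark its seed, bases 2 to 8.
mmu-miR-128-3p: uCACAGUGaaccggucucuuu

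Promoter sequence was examined as a feature that the selection of the genes by name did not use. Many of them were already known as E2F targets, so their share of E2F matches is not independent of that knowledge. Windows from 250 bases before to 50 bases after a gene's start, from RefSeq (GRCm38.p6), were found for 37 of the 45 genes. They were searched on both strands for an E2F motif, spelled TTTCCCGC, TTTCGCGC, TTTGCCGC or TTTGGCGC, and matches of these spellings can overlap each other. A match was found in 16 of the 37 genes (43.2%), against 704 of 27025 genes with a window (2.61%) and 575 of 17491 protein-coding genes (3.29%). The matching genes were Orc1, Orc3, Cdc6, Cdt1, Mcm3, Mcm5, Mcm6, Mcm7, Gins3, Pold1, Pold3, Pole2, Rfc3, Lig1, Pola1 and Uhrf1. The CCAAT motif was found in 22 of the 37 (59.5%, against 41.1% of all genes) and TTTGAA in 7 (18.9%, against 20.2%).

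To show what such a promoter looks like, 30 bases around each match upstream of the start are printed for the genes with a match there among those of smallest p in their group. All are written on the gene's strand, and capitals mark the match. A match on the opposite strand appears as its reverse complement, GCGCGAAA or GCGCCAAA. In Mcm5, matches on both strands overlap and form a run of 12 capitals. The windows lie at chr4:108579416-108579445 for Orc1, chr8:75109347-75109376 for Mcm5, chrX:93632275-93632304 for Pola1 and chr17:56304117-56304146 for Uhrf1, and the capitals begin 27, 153, 138 and 185 bases before the listed start. Uhrf1 has a further listed start upstream of this window. The matches in Mcm3 lie after its start and are not printed.
Orc1: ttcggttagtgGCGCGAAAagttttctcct
Mcm5: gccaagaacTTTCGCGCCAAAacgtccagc
Pola1: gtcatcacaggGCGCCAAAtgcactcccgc
Uhrf1: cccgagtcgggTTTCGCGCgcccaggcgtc
A match is a description of these letters and does not show binding. The median log2 fold change was -0.15 over the 16 measured genes with a match and -0.17 over the 20 measured genes without one.

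The arrays had median log2 values between 7.40 and 7.54, the highest on miR-Control replicate 3. The interquartile range was 3.17, 3.22 and 2.87 on miR-Control replicates 1 to 3, against 3.05, 2.98 and 3.01 on miR-128 replicates 1 to 3. Quantile normalization, which makes these ranges equal, gave the replication genes a median log2 fold change of -0.146. It was -0.152 in the deposited values. The part of the unequal ranges in the values of these genes, nearly all above the median level, was not tested in any other way. miR-Control replicate 3 stood apart, with a score of 42.5 on the leading principal component over all rows, while the other 5 arrays scored between -18.7 and -0.226. Fold changes of the replication genes are therefore given with and without it. Of 12 stem cell markers, Vim (13.5 to 13.6 over the 6 arrays), Sox2 (11.7 to 12.4) and Nes (10.6 to 11.4) had high log2 values on every array. Prom1 of that list (5.7 to 5.9) lay below the median level of all rows, and the neuron marker Map2 was high too (12.5 to 12.7). The deposited values carry no detection p, so no marker can be called absent.

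Over the whole set, replication genes had lower values with miR-128 in 39 of 44 cases and higher values in 5, where 43.2% of all rows were lower. Their median log2 fold change, miR-128 minus miR-Control, was -0.15, against 0.02 over all 32025 rows. The individual values ran from -0.55 for Fen1 to 0.09 for Pold3. None of the 44 passed an adjusted p of 0.05 in limma, where 0% of all rows passed. None passed with array weights or among rows above the median level either, where 0.0749% of all rows and 0.025% of the rows kept passed. At an unadjusted p under 0.05 there were 3, all lower: Pola1, Fen1 and Gins1, or 3 of 44 genes where 3.11% of all rows were lower and 4.04% higher at that level. The groups did not overlap in 5 genes, all lower (Pola1, Fen1, Gins1, Mcm10 and Cdt1), where 4.87% of all rows were lower and 6.98% higher without overlap. The median half-width of a gene's 95% interval was 0.33, a fold of 1.26, which is wider than most of the differences. In RNA from whole cultures, fewer cells in S phase and less RNA per cell cannot be told apart.

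**Figure D1:**
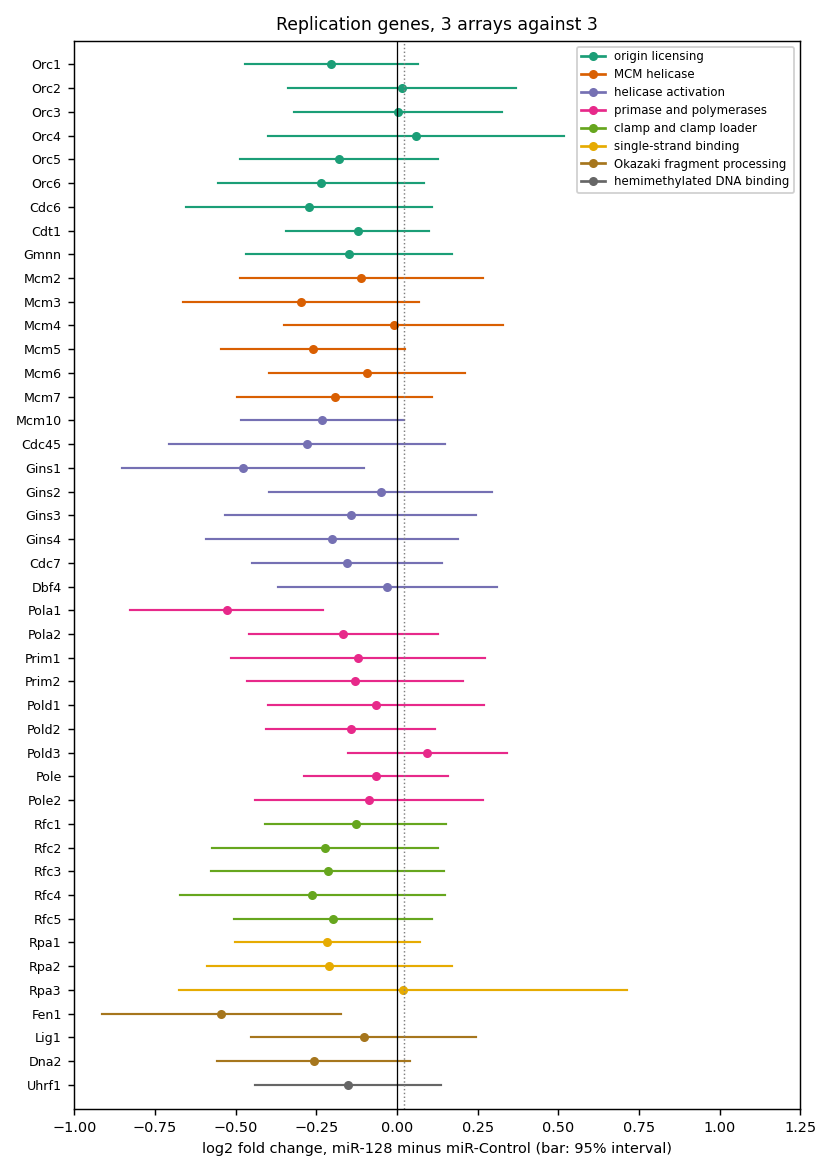
Log2 fold change, miR-128 minus miR-Control (horizontal axis), of each of the 44 measured replication genes, coloured by role, with 95% intervals from limma over 3 arrays per group. The solid line is 0 and the dotted line the median of all rows (0.02). Points of 39 genes lie below 0, and the intervals of Gins1, Pola1 and Fen1 exclude 0.

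The array-by-array values showed 2 controls high and the third low. Relative to the mean of the 3 controls, the 44 genes averaged 0.10, 0.16 and -0.26 on the control arrays, against -0.22, -0.10 and -0.18 on the miR-128 arrays, each in the order of replicates 1 to 3. miR-Control replicate 3 was thus lower than every miR-128 array in this mean. It was the lowest control in 42 of 44 genes, all but Cdc6 and Cdt1, where it was lowest in 34% of all rows. It lay below the highest miR-128 array in 39 of 44 genes, where 65% of all rows did. The SD was larger in the controls than with miR-128 in 36 of 44 genes, where 67.4% of all rows were, with medians of 0.23 and 0.11.

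**Figure D2:**
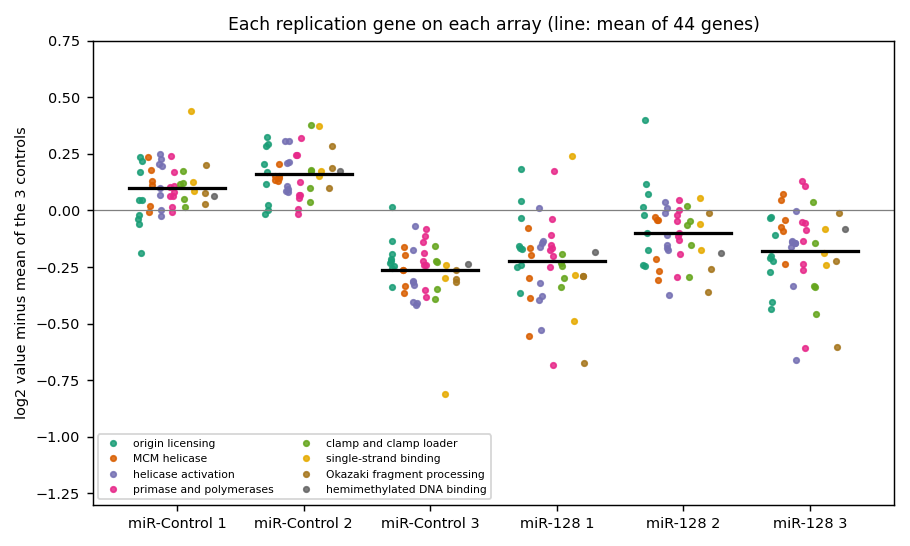
Log2 value of each replication gene minus the mean of its 3 control values (vertical axis) on each of the 6 arrays (horizontal axis), coloured by role; the black lines are means over 44 genes. The means of miR-Control replicates 1 and 2 (0.10 and 0.16) lie above 0, and those of miR-Control replicate 3 (-0.26) and the 3 miR-128 arrays (-0.22 to -0.10) lie below it.

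Without miR-Control replicate 3 the lower values numbered 43 of 44 (39% of all rows were lower), and the median was -0.29. At an unadjusted p under 0.05 there were then 26 lower genes and no higher one, where 5.84% of all rows were lower and 6.59% higher at that level, and still none passed the adjusted threshold (0% of all rows). The smallest adjusted p was 0.266, for Fen1. Both remaining controls lay above all 3 miR-128 arrays in 37 of 44 genes, where 12.1% of all rows did so. The 7 others were Orc3, Orc4, Cdc6, Gmnn, Prim2, Pold1 and Pold3. The shares over all rows are not matched for level, while 43 of the 44 genes lay above the median level. Quantile normalization was not combined with leaving out miR-Control replicate 3. Leaving out miR-Control replicate 2 moved the median to -0.09, with 34 lower genes, where 47.5% of all rows were lower. Leaving out miR-128 replicate 3 gave 5 lower genes at an unadjusted p under 0.05, where 2.46% of all rows were lower at that level. Array weights, which gave miR-Control replicate 3 the lowest weight, gave 23 such genes, where 6.67% of all rows were lower at that level. The size of the shift therefore depended on which controls were kept, while no left-out array turned the median's sign.

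**Figure D3:**
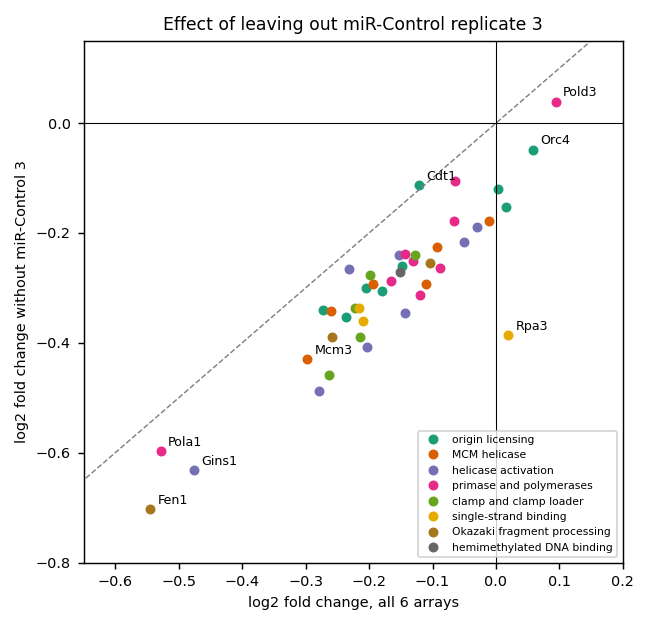
Log2 fold change of each replication gene without miR-Control replicate 3 (vertical axis) against that with all 6 arrays (horizontal axis), coloured by role; the dashed line marks equal values. Nearly all points lie below the dashed line, with Rpa3 farthest from it (0.02 with all arrays, -0.39 without) and Cdt1 just above it (-0.12 and -0.11).

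The origin recognition complex, which marks the sites where replication may begin, was split, with 3 of its 6 subunits lower and 3 higher. Orc1, the ATPase subunit that is made and destroyed with the cell cycle, measured 7.58, 7.44 and 7.22 on the log2 scale across miR-Control replicates 1 to 3, against 7.25, 7.17 and 7.21 across miR-128 replicates 1 to 3. Only miR-Control replicate 3 reached into the miR-128 range, and the log2 fold change was -0.20 (SE 0.12, limma adjusted p = 0.809). Orc6, the smallest subunit, measured 8.55, 8.90 and 8.38 across controls, against 8.37, 8.36 and 8.39 after miR-128, a difference of -0.24 (SE 0.14, limma adjusted p = 0.819). Its 3 miR-128 values were tight (SD 0.01), and its row is a noncoding transcript. Its other rows gave -0.20. Without miR-Control replicate 3, Orc1 stood at -0.30 and Orc6 at -0.35.

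The core subunits Orc2, Orc3 and Orc4 had differences near 0. Orc3 measured 9.88, 10.20 and 9.68 across controls, against 9.89, 9.99 and 9.89 after miR-128, a difference of 0.00275 (95% interval -0.32 to 0.32). The miR-128 values sat inside the range of the controls. Orc2 stood at 0.02 and Orc4 at 0.06, with a further Orc4 row at -0.07, the only gene of the set whose rows differed in sign. Orc5 was at -0.18 (95% interval -0.49 to 0.13). The signs of Orc2, Orc3 and Orc4 turned without miR-Control replicate 3, to -0.15, -0.12 and -0.05, and Orc5 stood at -0.31.

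The loading factors were all lower, without passing. Cdt1, which brings the MCM ring to the origin, measured 9.43, 9.45 and 9.46 across controls, against 9.29, 9.27 and 9.41 after miR-128. The controls were tight (SD 0.02, n = 3) and did not overlap with miR-128, at a difference of -0.12 (SE 0.10, limma adjusted p = 0.913). Cdc6, the ATPase that works with Cdt1, measured 9.86, 10.37 and 9.91 across controls, against 9.68, 10.03 and 9.61 after miR-128. Its miR-128 replicate 2 reached above 2 controls, and the difference was -0.27 (SE 0.17, limma adjusted p = 0.831). Gmnn, which encodes geminin, the inhibitor of Cdt1, was at -0.15 (95% interval -0.47 to 0.17). With miR-Control replicate 3 left out, Cdt1 stood at -0.11, Cdc6 at -0.34 and Gmnn at -0.26. Over the 9 genes of recognition and licensing the median was -0.15, and it was -0.26 without miR-Control replicate 3 and -0.09 without miR-Control replicate 2.

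All 6 MCM genes, whose products form the ring that unwinds DNA, had lower values with miR-128, from -0.01 for Mcm4 to -0.30 for Mcm3. Mcm3 measured 11.57, 11.57 and 11.17 across controls, against 10.88, 11.17 and 11.37 after miR-128. miR-Control replicate 3 was about as low as miR-128 replicate 2, and the difference was -0.30 (SE 0.16, limma adjusted p = 0.781). Mcm5 measured 10.52, 10.64 and 10.34 across controls, against 10.11, 10.19 and 10.41 after miR-128, a difference of -0.26 (SE 0.13, limma adjusted p = 0.733). Here miR-128 replicate 3 overlapped the lowest control. Mcm4 measured 10.58, 10.55 and 10.07 across controls, against 10.32, 10.37 and 10.47 after miR-128, a difference of -0.01 (95% interval -0.35 to 0.33).

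In the ring as a whole, miR-128 replicate 3 was the highest miR-128 array in 5 of 6 genes and miR-128 replicate 1 the lowest in 5 of 6. The 6 genes averaged -0.28, -0.15 and -0.05 in miR-128 replicates 1 to 3, relative to the controls. In all 6 genes both miR-Control replicates 1 and 2 lay above every miR-128 array, and miR-Control replicate 3 was the lowest control. The former held in 37 of the 44 genes and 12.1% of all rows, the latter in 42 of 44 and 34%. The remaining genes were Mcm2 at -0.11, Mcm6 at -0.09 and Mcm7 at -0.19. With miR-Control replicate 3 left out, the values were -0.29 for Mcm2, -0.43 for Mcm3, -0.18 for Mcm4, -0.34 for Mcm5, -0.23 for Mcm6 and -0.29 for Mcm7. The median of the 6 was -0.15, and it was -0.29 without miR-Control replicate 3 and -0.07 without miR-Control replicate 2.

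Among the 8 genes that activate the helicase, all were lower, and the GINS subunit gene Gins1 stood lowest. Gins1 measured 9.05, 9.35 and 8.74 across controls, against 8.65, 8.67 and 8.38 after miR-128. Every miR-128 value lay below every control, at a log2 fold change of -0.48, equal to a 1.39-fold lower level (SE 0.16, limma adjusted p = 0.589). A further Gins1 row gave -0.38. The other GINS subunits, which form a complex with Gins1, stood at -0.05 for Gins2, -0.14 for Gins3 and -0.20 for Gins4, all with intervals that include 0. Over the 44 genes, those lower at an unadjusted p under 0.05 in limma rose from 3 to 26 without miR-Control replicate 3. The share of all rows rose from 3.11% to 5.84%. The intervals of Gins3 and Gins4 likewise rested on that control. Without it Gins3 stood at -0.35 (SE 0.10, limma unadjusted p = 0.0109, adjusted p = 0.320) and Gins4 at -0.41 (SE 0.10, limma unadjusted p = 0.00474, adjusted p = 0.287). Gins1 then stood at -0.63 and Gins2 at -0.22 (SE 0.10, limma unadjusted p = 0.0705, adjusted p = 0.433). The differences between the 4 subunits were not tested.

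Mcm10, a scaffold that helps the helicase to start, measured 9.64, 9.76 and 9.60 across controls, against 9.29, 9.49 and 9.52 after miR-128. The groups did not overlap, and the difference was -0.23 (SE 0.11, limma adjusted p = 0.733). Cdc45, the helicase subunit that joins with GINS, was at -0.28 (95% interval -0.71 to 0.15). The kinase Cdc7 was at -0.15 (95% interval -0.45 to 0.14). Its activating subunit Dbf4 measured 10.02, 9.88 and 9.48 across controls, against 9.81, 9.83 and 9.65 after miR-128, a difference of -0.03 (95% interval -0.37 to 0.31). Leaving out miR-Control replicate 3 gave -0.27 for Mcm10, -0.49 for Cdc45, -0.24 for Cdc7 and -0.19 for Dbf4. In all 8 genes miR-Control replicates 1 and 2 lay above every miR-128 array, as they did in 37 of the 44 genes and 12.1% of all rows. The median of the 8 was -0.18, and it was -0.31, -0.10 and -0.11 when control replicate 3, 2 or 1 was left out.

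The catalytic subunit of polymerase alpha, Pola1, which extends the RNA primer, had the smallest p of the 44 genes (unadjusted p = 0.00324 in limma). It measured 9.99, 9.96 and 9.77 across controls, against 9.22, 9.61 and 9.30 after miR-128. The groups did not overlap, and miR-Control replicate 3 too lay above the miR-128 arrays. The log2 fold change was -0.53, equal to a 1.44-fold lower level (SE 0.13, limma adjusted p = 0.416), and it was -0.60 without miR-Control replicate 3. Its partners in the same complex were at smaller values. Pola2, the accessory subunit, measured 9.68, 9.58 and 9.26 across controls, against 9.26, 9.39 and 9.37 after miR-128, a difference of -0.17 (SE 0.13, limma adjusted p = 0.902). The primase subunits Prim1 and Prim2 were at -0.12 and -0.13. Leaving out miR-Control replicate 3 gave -0.29 for Pola2, -0.31 for Prim1 and -0.25 for Prim2.

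The leading and lagging strand polymerases had values nearer 0 than Pola1. Pole, the catalytic subunit of polymerase epsilon, measured 9.37, 9.42 and 9.27 across controls, against 9.31, 9.25 and 9.30 after miR-128. The difference was -0.06 (95% interval -0.29 to 0.16), with the groups overlapping. Pole2 was at -0.09, and the delta subunits Pold1 and Pold2 were at -0.07 and -0.14. Pold3, an accessory delta subunit, was the one gene of the 44 that stayed higher without miR-Control replicate 3. It measured 9.42, 9.31 and 9.20 across controls, against 9.49, 9.31 and 9.42 after miR-128, a difference of 0.09 (95% interval -0.15 to 0.34), and 0.04 without that control. The other values without it were -0.10 for Pole, -0.26 for Pole2, -0.18 for Pold1 and -0.24 for Pold2. Over these 9 genes the median was -0.12, with 8 lower. It was -0.25, -0.03 and -0.08 when control replicate 3, 2 or 1 was left out.

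**Figure D4:**
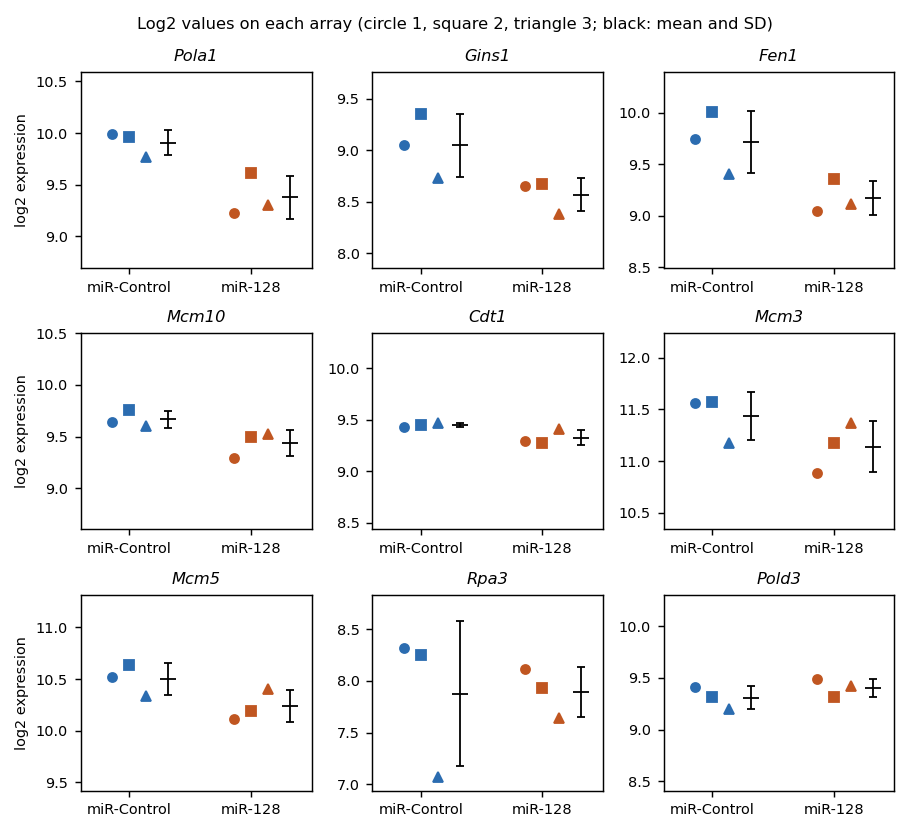
Log2 expression (vertical axes, each spanning the same range) of 9 replication genes on each array, with miR-Control in blue and miR-128 in orange; circles, squares and triangles are replicates 1, 2 and 3, and black bars are the mean and SD of 3 arrays. Groups do not overlap for Pola1, Gins1, Fen1, Mcm10 and Cdt1, and the triangle of miR-Control lies apart from the other controls for Rpa3 (7.07 against 8.32 and 8.25).

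The 5 clamp loader genes, whose product opens the clamp and closes it around primed DNA, all had lower values, within a narrow band from -0.13 to -0.26. Rfc4 measured 10.46, 10.82 and 10.05 across controls, against 10.14, 10.29 and 10.11 after miR-128, a difference of -0.26 (SE 0.18, limma adjusted p = 0.874). Rfc5 measured 10.81, 10.73 and 10.54 across controls, against 10.36, 10.40 and 10.73 after miR-128, a difference of -0.20 (SE 0.13, limma adjusted p = 0.870). In Rfc5, miR-128 replicate 3 was as high as a control, and in Rfc4 the overlap came from miR-Control replicate 3. Rfc1, the large subunit, measured 10.31, 10.28 and 9.96 across controls, against 9.99, 10.14 and 10.04 after miR-128, a difference of -0.13 (95% interval -0.41 to 0.15). Rfc2 and Rfc3 were at -0.22 and -0.21. Without miR-Control replicate 3 the values of Rfc1 to Rfc5 were -0.24, -0.34, -0.39, -0.46 and -0.28. The median was -0.21, and it was -0.34, -0.13 and -0.14 when control replicate 3, 2 or 1 was left out.

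The single-strand binding complex RPA coats unwound DNA. Rpa1, its large subunit, measured 10.22, 10.28 and 9.89 across controls, against 9.85, 9.96 and 9.94 after miR-128, a difference of -0.22 (SE 0.13, limma adjusted p = 0.815). Rpa2 measured 9.74, 9.79 and 9.31 across controls, against 9.12, 9.55 and 9.53 after miR-128, a difference of -0.21 (SE 0.17, limma adjusted p = 0.913). In both, miR-Control replicate 3 lay among the miR-128 values, and without it Rpa1 stood at -0.34 and Rpa2 at -0.36. Rpa3, the smallest subunit, measured 8.32, 8.25 and 7.07 across controls, against 8.12, 7.93 and 7.64 after miR-128. It carried the largest standard error of the set (0.31), and its difference of 0.02 became -0.39 without miR-Control replicate 3. The median of the 3 was -0.21, with -0.36 and -0.12 when control replicate 3 or 2 was left out and -0.09 without miR-128 replicate 1.

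Of the enzymes that finish Okazaki fragments, the flap endonuclease gene Fen1 had the lowest log2 fold change of all 44 genes. It measured 9.74, 10.00 and 9.40 across controls, against 9.04, 9.36 and 9.11 after miR-128. The groups did not overlap, although miR-Control replicate 3 lay close to miR-128 replicate 2. The difference was -0.55, equal to a 1.46-fold lower level (SE 0.16, limma adjusted p = 0.502), and -0.70 without miR-Control replicate 3. Dna2, a nuclease and helicase that trims long flaps, measured 8.60, 8.71 and 8.26 across controls, against 8.24, 8.27 and 8.30 after miR-128, a difference of -0.26 (SE 0.13, limma adjusted p = 0.759). Its miR-128 values were tight (SD 0.03, n = 3), and only miR-Control replicate 3 lay among them. Lig1, the ligase that seals the nicks, measured 10.48, 10.38 and 9.98 across controls, against 9.99, 10.27 and 10.27 after miR-128, a difference of -0.10 (95% interval -0.45 to 0.24). With miR-Control replicate 3 left out, Dna2 stood at -0.39 and Lig1 at -0.25. The median of the 3 was -0.26, with -0.39 without miR-Control replicate 3 and -0.16 without miR-Control replicate 2.

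Uhrf1, which reads hemimethylated DNA behind the fork and recruits the maintenance methyltransferase, measured 11.24, 11.35 and 10.94 across controls, against 10.99, 10.99 and 11.09 after miR-128. miR-Control replicate 3 was the lowest of the 6 arrays. The difference was -0.15 (SE 0.13, limma adjusted p = 0.919), with -0.27 without miR-Control replicate 3 and -0.07 without miR-Control replicate 2. The gene's other distinct row gave the same rounded value of -0.15.

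Other genes of the pathway were taken from lists drawn up by function. Of 31 origin firing and fork accessory factors, 22 were lower and 9 higher, with a median of -0.05, where 43.2% of all rows were lower. None passed, and 2 were lower at an unadjusted p under 0.05, where 3.11% of all rows were. These were Clspn, which encodes the checkpoint adaptor claspin, at -0.53 (limma adjusted p = 0.478), and Rnaseh2b, a subunit of the ribonuclease that removes ribonucleotides from DNA, at -0.46 (limma adjusted p = 0.506). Of 13 genes of replication-coupled chromatin assembly, 10 were lower, with a median of -0.14, and 4 were lower at an unadjusted p under 0.05. Chaf1a, the large subunit of the histone chaperone CAF-1, measured 9.34, 9.10 and 9.10 across controls, against 8.39, 8.63 and 8.81 after miR-128, a difference of -0.58 (SE 0.14, limma adjusted p = 0.391). Supt16, a subunit of the histone chaperone FACT, measured 11.78, 11.81 and 11.78 across controls, against 11.14, 11.47 and 11.38 after miR-128, a difference of -0.46 (SE 0.11, limma adjusted p = 0.416). These genes were named for the smallest p of that list, so a lack of overlap in them follows largely from that choice. All 3 controls lay above every miR-128 array in 5 of the 13 genes, both of these included, where 4.87% of all rows did. Without miR-Control replicate 3 the values were -0.62 for Chaf1a and -0.46 for Supt16.

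Neighbouring lists of the cell cycle are read against the same shares of all rows, 43.2% lower and 3.11% lower at an unadjusted p under 0.05. All 12 genes of deoxynucleotide synthesis were lower, with a median of -0.23, and 2 were lower at an unadjusted p under 0.05: Shmt1 at -0.51 (limma adjusted p = 0.540) and Tyms at -0.34 (limma adjusted p = 0.581). Of 25 mitotic genes 23 were lower, with a median of -0.20, and 7 were lower at an unadjusted p under 0.05, among them Hmmr at -0.51 (limma adjusted p = 0.391) and Tpx2 at -0.41 (limma adjusted p = 0.456). The array means of the lists placed miR-Control replicate 3 differently. In the fork accessory factors it averaged -0.17, below the miR-128 arrays at -0.08, -0.01 and -0.15, as it did in the replication genes. It lay among the miR-128 arrays in mitotic genes, at -0.19 against -0.24, -0.11 and -0.35, and in deoxynucleotide synthesis, at -0.15 against -0.28, -0.10 and -0.27. In chromatin assembly it averaged -0.17, against -0.26, -0.13 and -0.22. Without miR-Control replicate 3 the medians were -0.14 for fork accessory factors, -0.28 for chromatin assembly, -0.31 for deoxynucleotide synthesis and -0.33 for mitotic genes. The genes lower at an unadjusted p under 0.05 then numbered 4, 6, 7 and 14 in these lists, where 5.84% of all rows were. No difference between lists was tested.

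**Figure D5:**
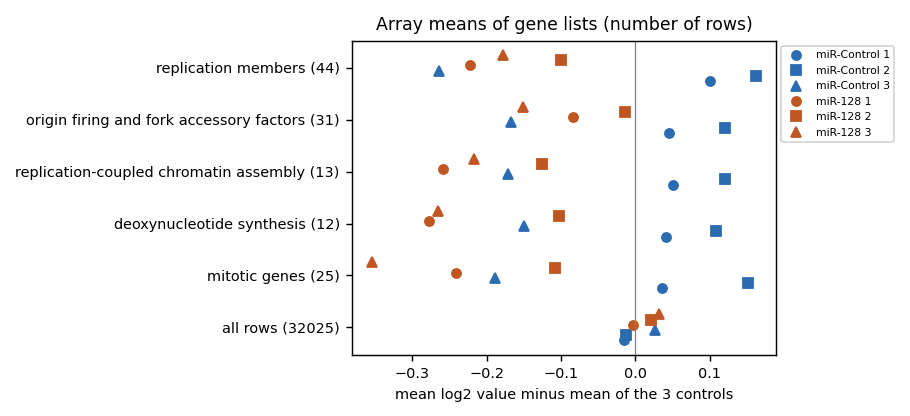
Mean log2 value of each gene list minus the mean of the 3 controls (horizontal axis) on each array, for the replication genes, 4 other lists and all rows (vertical axis, number of rows in brackets); blue is miR-Control and orange miR-128, and marker shapes are replicates. In each of the 5 gene lists miR-Control replicate 3 (blue triangle, -0.26 to -0.15) lies left of the other controls and among or below the miR-128 arrays, while all rows stay between -0.02 and 0.03.

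Markers of other cell types were measured beside these genes, and 56.8% of all rows were higher with miR-128. Of 6 astrocyte markers 5 were higher, with array means of -0.05 to 0.04 in the controls and 0.13 to 0.18 with miR-128. Of 7 oligodendrocyte lineage markers 6 were higher, with -0.09 to 0.06 in the controls and 0.18 to 0.23 with miR-128. Of 12 stem cell markers 7 were higher, with -0.05 to 0.04 and -0.07 to 0.07. Of 10 neuron markers 7 were higher, with -0.05 to 0.03 and 0.00521 to 0.09. All 6 microglia markers were higher, with -0.03 to 0.06 in the controls and 0.06 to 0.08 with miR-128, and 5 of 8 vascular and mesenchymal markers were higher, with -0.09 to 0.10 and -0.10 to 0.11. All 6 microglia markers lay below the median level of all rows, as did most neuron and vascular markers. So did the astrocyte markers Gfap and Aqp4 and the oligodendrocyte lineage markers Pdgfra, Mbp, Mog and Mag. The shares over all rows are not matched for level. The share of stem cell and vascular markers that were higher was near that of all rows. None of these markers passed in limma. At an unadjusted p under 0.05, where 4.04% of all rows were higher and 3.11% lower, 2 astrocyte and 3 oligodendrocyte lineage markers were higher, 1 astrocyte and 1 stem cell marker were lower, and no neuron, microglia or vascular marker was on either side. Their part in the replication gene values was not tested. miR-Control replicate 3 averaged 0.01 in the astrocyte list and 0.06 in the oligodendrocyte list, below every miR-128 array in both.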

How the data were processed

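The authors' deposited table holds log2 values, 1 column per exon array. Per the submitters' processing notes, RMA and the R package affy produced them. The sources used here do not give versions, probe grouping or genome build. RMA compresses fold changes. Rows are RefSeq transcripts, and 25339 of 32025 were matched by accession without version to GRCm38.p6 gene names. Of the 45 genes, 10 had over 1 distinct row.

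limma 3.58.1 in R 4.3.3 was fitted to all 32025 rows and 6 arrays (unpaired, two-sided, no filter), with Benjamini-Hochberg adjustment over all rows at a threshold of 0.05. The prior df came to 4.74. Values called SD are over 3 arrays. The fit was tested on simulated data of independent rows, with equal spread on every array and no outlying array. That test does not cover an array that stands apart, as miR-Control replicate 3 did, or genes that vary together. Alternatives were other normalizations, a level filter, array weights, a trended prior, a replicate block, each array left out and the mean of a gene's rows.

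Genes and lists were chosen with earlier results of these data known. Values on every array are given for the 2 genes of smallest p and the gene of smallest change in each group, and for groups of 3 or fewer in full. They are also given for Cdt1, Cdc6 and Pold3, which were chosen after their values were seen. Of each other replication or cell cycle list the 2 genes of smallest p are named, and Chaf1a and Supt16 among these have values on every array. The number of arrays limits precision.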

Additional observations from a re-analysis of the deposited data

How the results depend on the processing

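No replication gene passed under any of the 13 alternatives, with a lowest adjusted p of 0.0944 (Pola1 under array weights). Over all rows 4 passed among rows above the median level and 24 under array weights, and none under the other alternatives. Under array weights, which gave miR-Control replicate 3 the lowest weight (0.279), 23 replication genes were lower at an unadjusted p under 0.05, where 6.67% of all rows were. Of the 44 genes 32 kept their sign in every alternative. Centring arrays on their medians turned Orc2 to -0.012, Orc3 to -0.025 and Rpa3 to -0.0086, and array weights turned them to -0.11, -0.024 and -0.22. Leaving out 1 array at a time gave -0.15 to 0.13 for Orc2, -0.12 to 0.14 for Orc3, -0.11 to 0.29 for Orc4, -0.29 to 0.0070 for Mcm2, -0.18 to 0.079 for Mcm4, -0.22 to 0.074 for Gins2, -0.35 to 0.0093 for Gins3, -0.19 to 0.084 for Dbf4, -0.31 to 0.040 for Prim1, -0.18 to 0.055 for Pold1, -0.26 to 0.035 for Pole2 and -0.39 to 0.24 for Rpa3. The cause was not tested. With the replicate number as a block, 0 rows and 0 replication genes passed and 39 genes were lower with a median of -0.15, so it changed no call. Same-numbered arrays correlated at -0.0028, 0.17 and 0.05 in their deviations from group means, and the other pairs at -0.24 to 0.19. With 3 arrays per group, these values cannot decide whether the numbers pair the arrays. Signal over background is unknown for these rows.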

Other observations

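The table also holds rows for the 2 precursor genes of miR-128, which the mimic, a short RNA, does not transcribe, so they do not check its delivery. Mir128-1 measured 7.40, 7.83 and 8.07 across controls, against 8.02, 8.47 and 7.70 after miR-128, and Mir128-2 measured 7.84, 7.50 and 9.25 across controls, against 8.15, 8.11 and 7.76 after miR-128. The groups overlapped in both, with log2 fold changes of 0.30 (limma adjusted p = 0.894) and -0.20 (limma adjusted p = 0.983).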
